A study of Rattus norvegicus with 4 samples.

Results

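The genes described here make, control and move cholesterol and fatty acids. They are 43 rat genes taken from a list of names, among 22038 genes and unnamed transcripts tested on the array. The rule that found their probes used no measured value, but the list was chosen with earlier results of these data known. Of the 43, 42 had a probe on the array and 41 were tested, through 57 of their 60 probes. The probe of Acacb, the mitochondrial acetyl-CoA carboxylase, was well above background on 1 of 4 arrays and was not tested, and Npc1, a lysosomal cholesterol transporter, had no probe by its symbol and was not analysed here. Msmo1 and Scd were found under the older symbols Sc4mol and Scd1.

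The cells were labelled as peritubular myoid cells, the contractile cells of the wall of the seminiferous tubule. They were isolated from testes of rats aged 40 days and kept 4 days in a DMEM and Ham's F-12 medium with defined growth factors. One group received 1e-07 M testosterone in pulses, and the other was labelled as control. Each group had 2 arrays, numbered 1 and 2, and the question in the series title is which genes testosterone induces. No strain, genotype or duration of the testosterone pulses is given in the labels, nor what the control cells received. Whether the replicates are separate cultures or repeats of 1 RNA is not given either. A p-value here therefore weighs a difference against array-to-array spread whose source is not given. The model used, limma, also draws the spread of each gene toward that of all genes tested. The spread was wide for some genes. The germ cell marker Tnp1 read -3.42 and -2.80 on testosterone and control replicate 1, and 1.59 on both replicate 2 arrays. Why arrays of a group differed was not tested. The cells were cultured outside the tubule whose wall myoid cells form, and the culture also held transcripts of other testicular cell types. These are given at the end. In RNA from a whole culture, fewer cells of a type and less RNA per cell cannot be told apart.

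Cholesterol is built from acetyl-CoA through mevalonate, isoprenoid diphosphates, squalene and lanosterol, and fatty acids are built from the same acetyl-CoA. Both routes are controlled by the SREBP transcription factors, which are held in the endoplasmic reticulum by Scap and the Insig proteins while sterols are plentiful and move to the nucleus when sterols are scarce. Oxysterol-sensing LXR receptors act on the other side, switching on cholesterol export and the gene of SREBP-1c. Androgens are known to raise lipid synthesis genes through SREBP in prostate cells.

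No gene of this pathway was called higher or lower with testosterone. The difference was positive for 8 of the 41 tested and negative for 33. Values ran from -0.21 to 0.17 on the log2 scale, with a median of -0.06. At an adjusted p under 0.05 in limma 0 were called in either direction, where 0% of all genes were called higher and 0% lower. An unadjusted p under 0.05 in limma was reached by 0 of the 41 and by 174 of 22038 genes. At so small a share over all genes, 0 of the 41 is near the background. All 41 of the 95% intervals held 0, and their median half-width was 0.58, with a range from 0.48 to 1.14. The probe of Msmo1 and the brightest of 3 Scd2 probes, which stands for that gene here, were saturated. The differences of these probes were therefore not measured. Of the other 39 genes 8 were positive and 31 negative, and for 38 a 2-fold change in either direction lay outside the interval, the exception being Acss2.

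The share of negative differences was 80.5% in the pathway and 52.1% over all genes tested. Bright genes leaned the same way in the whole data set. Among genes with a mean level above 0, meaning above the array's 75th percentile of signal, 82.9% of 35 pathway genes and 60.4% of 8801 genes were negative. The median difference over all genes was -0.01. These shares describe the list and were not tested, since the genes of a pathway are not independent of each other. As deviations from each gene's mean over 4 arrays, the median of the 41 genes was -0.02 and -0.04 on testosterone replicates 1 and 2 and 0.07 and -0.01 on control replicates 1 and 2. Control replicate 1 was thus the array farthest from the others.

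**Figure D1:**
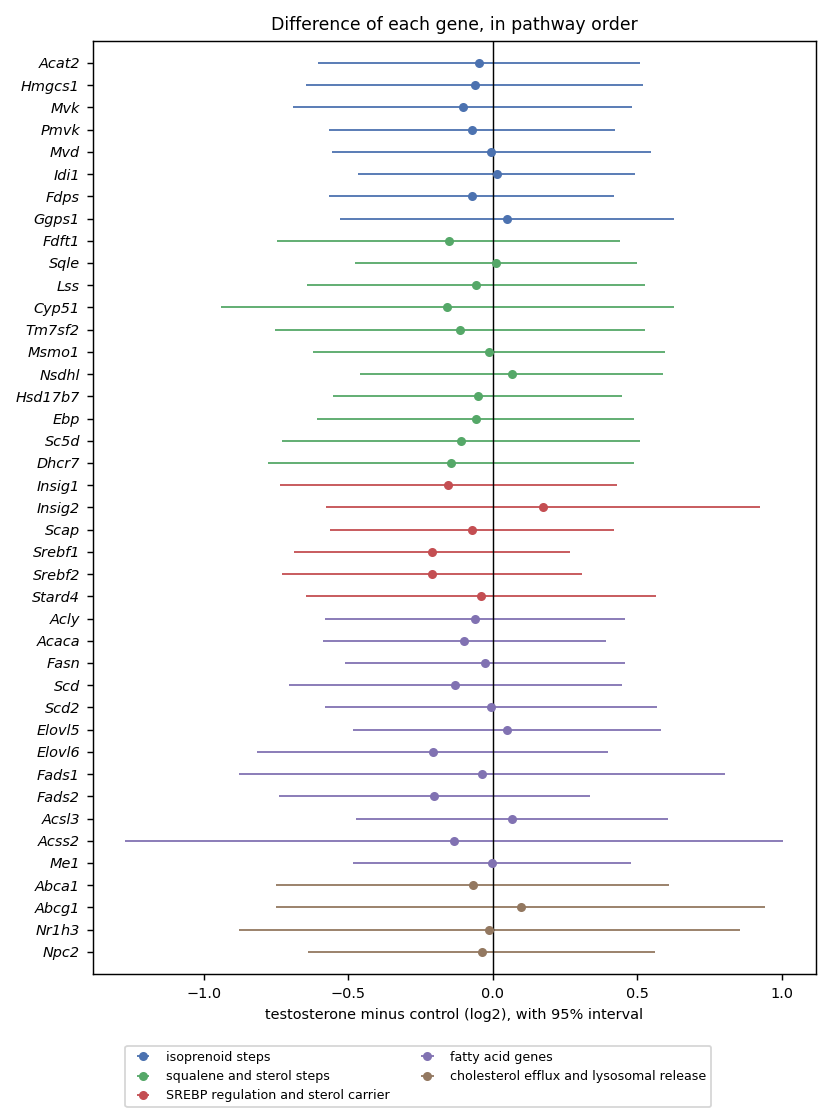
Difference between testosterone and control on the log2 scale for the 41 tested genes, in pathway order and coloured by role; bars are 95% intervals from limma over 2 arrays per group. The points lie between -0.21 and 0.17 and every bar crosses 0. The probes shown for Msmo1 and Scd2 were saturated.

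Both testosterone arrays lay below both control arrays for 4 genes, Acaca, Fads2, Srebf1 and Srebf2, which is 9.76% of the 41. The same order held for 9.12% of all genes tested, so the pathway's share is near the background. The opposite order, with testosterone above control, was found for 0 pathway genes and 6.07% of all genes.

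The 4 genes include both SREBP genes. For 3 of them RefSeq promoter windows were at hand. These are shown because the groups did not overlap, not for the motifs that they hold. The windows span the 250 bases before each start site in assembly GRCr8, written on the gene's strand. Srebf1 has a pair of annotated starts. Capitals mark 5 motifs, each searched on both strands, and no marked motifs overlap. The core of a sterol regulatory element, to which SREBP binds, was taken as CACCCCA. The box of NF-Y, a partner of SREBP at its target genes, was taken as CCAAT. The GC box of Sp1, a further partner of SREBP, was taken as GGGCGG. The E box, which SREBP can also bind, was taken as CACGTG. The androgen receptor's half-site was taken as AGAACA.
Srebf1 at chr10:45519011-45519260, minus strand: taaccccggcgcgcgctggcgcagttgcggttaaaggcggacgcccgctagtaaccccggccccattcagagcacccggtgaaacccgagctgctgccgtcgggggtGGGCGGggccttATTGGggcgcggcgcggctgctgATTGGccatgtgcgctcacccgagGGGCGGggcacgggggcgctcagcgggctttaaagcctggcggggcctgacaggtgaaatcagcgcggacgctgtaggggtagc
Srebf1 at chr10:45529165-45529414, minus strand: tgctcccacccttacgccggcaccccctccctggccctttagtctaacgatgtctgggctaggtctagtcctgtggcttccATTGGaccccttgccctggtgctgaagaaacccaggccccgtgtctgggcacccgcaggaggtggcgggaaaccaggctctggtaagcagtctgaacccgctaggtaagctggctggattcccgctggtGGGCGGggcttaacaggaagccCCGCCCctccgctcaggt
Srebf2 at chr7:115543057-115543306, plus strand: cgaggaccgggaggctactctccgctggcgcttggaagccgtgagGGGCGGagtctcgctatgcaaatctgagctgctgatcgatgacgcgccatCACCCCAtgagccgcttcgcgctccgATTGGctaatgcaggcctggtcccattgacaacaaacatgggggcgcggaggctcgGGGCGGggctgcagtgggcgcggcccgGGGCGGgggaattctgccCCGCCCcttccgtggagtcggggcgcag
Fads2 at chr1:216172034-216172283, minus strand: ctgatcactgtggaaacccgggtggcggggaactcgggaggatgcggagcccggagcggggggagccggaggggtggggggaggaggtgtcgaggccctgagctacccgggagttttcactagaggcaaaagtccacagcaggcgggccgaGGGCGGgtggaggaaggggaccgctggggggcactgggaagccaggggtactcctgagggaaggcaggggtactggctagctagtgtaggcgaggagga

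The first Srebf1 window holds 2 NF-Y boxes, at -131 and -108 counted from the start site, between 2 GC boxes at -143 and -84. The Srebf2 window holds the sterol element core at -155, an NF-Y box at -129 and 4 GC boxes. The Fads2 window holds 1 GC box and the second Srebf1 window 1 NF-Y box and 2 GC boxes. None of the 4 windows holds the E box or the androgen half-site letters, which says nothing of binding elsewhere or to variant letters. In all, 36 windows of 35 listed genes were matched. The NF-Y box was in 72.2% of them and in 34.0% of 33469 promoters of the same length, and the GC box was in 27 of the 36 windows and in 30.5% of all promoters. The sterol element core was in 3 windows (8.33%, against 5.9%), those of Acat2, Ebp and Srebf2. The E box was in 13.9% against 5.59%. The androgen half-site was in 4 windows, those of Abca1, Acacb, Hsd17b7 and Scap (11.1%, against 17.5%). A match is a string of letters, not a measured binding site.

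The SREBP genes, their regulators and the sterol carrier Stard4 had the lowest median of the roles, -0.11 over 6 genes. Of these, 1 difference was positive and 5 were negative. Srebf1 encodes SREBP-1, the factor that acts mainly on fatty acid genes. Its brightest probe (chromosome 10, 46462235 to 46462294, build rn4) read 5.12 and 5.13 on testosterone replicates 1 and 2 and 5.34 on both control replicates, as log2 levels relative to the array's 75th percentile. The arrays of each group nearly coincided, with an SD of 0.008 with testosterone and 0.001 in control, and the groups did not overlap. The interval that follows rests mostly on spread that limma shares across genes, not on these SDs. The difference was -0.21 (95% interval -0.69 to 0.27), 1.16-fold lower with testosterone, and missed the test (adjusted p = 1.00 in limma).

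A second Srebf1 probe, at 46463470 to 46463986 on the same chromosome, was printed at 10 spots of every array and so gives the error of the measurement within an array. Its mean over the 10 spots was 2.33 and 1.75 on testosterone replicates 1 and 2 and 2.53 and 2.22 on control replicates 1 and 2. The SD over spots was 0.09 and 0.07 on the testosterone arrays and 0.11 and 0.05 on the controls. Testosterone replicate 1 thus read below control replicate 1 and above control replicate 2, and the groups overlapped. The gap between the testosterone arrays was larger than the SD over spots on either. With this probe the difference was -0.33 (-1.09 to 0.43). On control replicate 1 the 4 spots in array columns 57 to 85 averaged 2.63 and the other 6 averaged 2.47, against 2.33 and 2.33 on testosterone replicate 1, 1.76 and 1.75 on testosterone replicate 2, and 2.21 and 2.22 on control replicate 2. A further Srebf1 probe was well above background on 0 arrays.

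**Figure D2:**
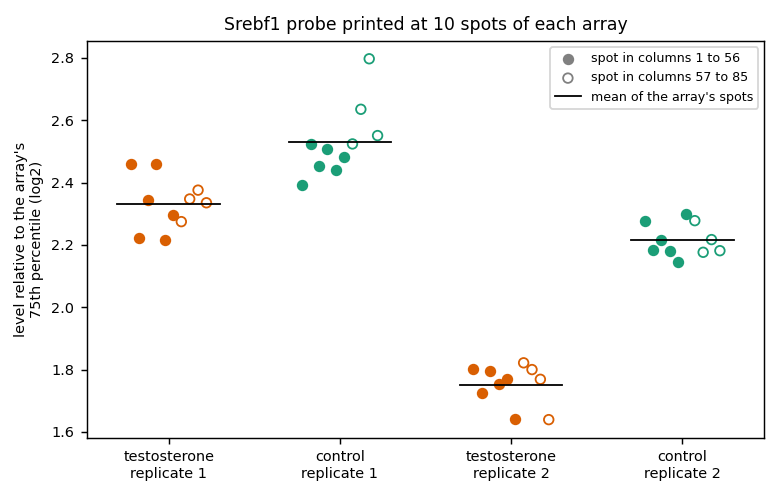
Log2 level relative to the array's 75th percentile at each of the 10 spots of 1 Srebf1 probe, by array; open points are spots in array columns 57 to 85 and lines are the mean of each array. The means are 2.33 and 1.75 with testosterone and 2.53 and 2.22 in control, and the spots of testosterone replicate 2 lie below those of every other array.

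Srebf2 encodes SREBP-2, the main activator of cholesterol synthesis genes. Its brighter probe (chromosome 7, 120548399 to 120548458, rn4) read -0.91 on both testosterone arrays and -0.59 and -0.81 on control replicates 1 and 2. Control replicate 1 stood above the other 3 arrays, and this probe lies in column 75. The difference was -0.21 (-0.73 to 0.31). The other Srebf2 probe, in column 35, read -2.39 and -2.29 with testosterone and -2.19 and -2.16 in control, with a difference of -0.16 (-0.65 to 0.33). Both probes of this gene therefore had the testosterone arrays below the controls, by amounts smaller than their intervals.

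Insig1, an anchor that keeps the SREBP complex in the endoplasmic reticulum while sterols are plentiful, had 4 tested probes. The brightest read 6.72 and 6.60 with testosterone and 6.99 and 6.64 in control, so that control replicate 1 was highest and the groups overlapped. Its difference was -0.15 (-0.74 to 0.43), and the other 3 probes gave -0.11, -0.18 and -0.25. All 4 differences were negative and all 4 intervals held 0. Insig2, a relative with the same role, had the highest difference of the 41 genes at 0.17 (-0.58 to 0.92), from levels of 0.64 and 1.17 with testosterone and 0.55 and 0.92 in control, where both replicate 2 arrays read above both replicate 1 arrays. A second Insig2 probe gave 0.03. Scap, the escort of SREBP to the Golgi, read 4.27 and 4.25 with testosterone and 4.39 and 4.27 in control. Its difference was -0.07 (-0.56 to 0.42), with control replicate 1 again the highest array, and Stard4, a cytosolic sterol carrier, differed by -0.04.

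Genes of the isoprenoid steps hardly differed, with 2 positive and 6 negative differences among 8 and a median of -0.06. Hmgcs1, HMG-CoA synthase, read 6.94 and 6.57 with testosterone and 6.81 and 6.83 in control. The testosterone arrays lay on both sides of the controls, and the difference was -0.06 (-0.65 to 0.52). Mean signals of this probe reached 60138, near the scanner's saturation at 65526. A second, dimmer Hmgcs1 probe gave 0.05 (-0.57 to 0.67), so the sign depended on the probe. Mvk, mevalonate kinase, read 1.03 and 1.36 with testosterone and 1.38 and 1.22 in control, a difference of -0.11 (-0.69 to 0.48). Pmvk, the next kinase, read 2.72 and 2.86 with testosterone and 2.88 and 2.85 in control, a difference of -0.07 (-0.57 to 0.42). In both genes testosterone replicate 1 was the lowest array and the groups overlapped. Fdps, farnesyl diphosphate synthase, read 6.07 and 5.98 with testosterone and 6.14 and 6.05 in control, with a difference of -0.07 (-0.57 to 0.42), and its 3 probes gave -0.07, -0.07 and -0.08. The remaining genes of these steps, Acat2, Mvd, Idi1 and Ggps1, lay between -0.05 and 0.05.

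The steps from squalene to cholesterol gave 2 positive and 9 negative differences among 11 genes, with a median of -0.06. Sqle, squalene epoxidase, a rate-limiting enzyme, read 5.11 and 5.20 with testosterone and 5.12 and 5.18 in control. Its difference of 0.01 (-0.48 to 0.50) was among the smallest of the pathway, and turned negative with normexp and quantile normalization. Cyp51, lanosterol demethylase, read 3.55 and 2.94 with testosterone and 3.56 and 3.24 in control. In both groups the replicate 2 array was the lower, and the difference was -0.16 (-0.94 to 0.63). Fdft1, squalene synthase, differed by -0.15 (-0.75 to 0.44), from 0.89 and 0.62 with testosterone and 1.05 and 0.77 in control. Dhcr7, which makes cholesterol from its immediate precursor, differed by -0.15 (-0.78 to 0.49), from 3.08 and 2.74 with testosterone and 3.21 and 2.90 in control. For both of these genes, too, replicate 2 was the lower array in each group and the groups overlapped. The probe of Msmo1, a sterol methyl oxidase, was saturated on all 4 arrays, so its difference was not measured, although it counts as negative here (-0.01).

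Fatty acid genes gave 2 positive and 10 negative differences among 12, with a median of -0.05. Acaca, the acetyl-CoA carboxylase that commits carbon to fatty acids, read 4.91 and 5.01 with testosterone and 5.03 and 5.09 in control (chromosome 10, 72678945 to 72679004, rn4). The groups did not overlap, but the higher testosterone array and the lower control were nearly level. The difference was -0.10 (-0.59 to 0.39), and a second, dimmer probe gave 0.04. Fads2, the delta-6 desaturase of polyunsaturated fatty acids, read -0.30 and -0.54 with testosterone and -0.29 and -0.15 in control (chromosome 1, 212532988 to 212539191, rn4, the span of its probe). Testosterone replicate 1 and control replicate 1 were nearly level, and the difference was -0.20 (-0.74 to 0.34).

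Fasn, fatty acid synthase, read 4.78 and 4.72 with testosterone and 4.75 and 4.81 in control, a difference of -0.03 (-0.51 to 0.46) that turned positive with normexp and quantile normalization. Its second probe read 4.45 and 4.23 with testosterone and 4.62 and 4.47 in control, with the groups apart and a difference of -0.20 (-0.74 to 0.34). The 2 probes of this gene thus differed in whether the groups overlapped. Scd, stearoyl-CoA desaturase, read 2.50 and 2.26 with testosterone and 2.65 and 2.38 in control, a difference of -0.13 (-0.71 to 0.45) with overlapping groups. The brightest probe of its paralog Scd2 was saturated on all 4 arrays, and the other 2 probes of that gene gave -0.01 and -0.14. Elovl6, an elongase of saturated chains, read 0.16 and 0.40 with testosterone and 0.32 and 0.66 in control with its brighter probe, which lies in column 73. That probe gave a difference of -0.21 (-0.81 to 0.40) and the other probe 0.13 (-1.17 to 1.43), so the sign depended on the probe. Acss2, which makes acetyl-CoA from acetate, read -2.09 and -2.87 with testosterone and -1.94 and -2.76 in control. It had the widest interval of the 41, around a difference of -0.13 (-1.27 to 1.01), and its arrays parted by replicate number. Over all genes with more than 1 tested probe, 12 in number, 7 had negative differences throughout and 3 had probes of both signs.

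On the export side, 1 of 4 genes was positive and 3 negative, with a median of -0.03. Abca1, the transporter that loads cholesterol onto apolipoprotein A-I, read 3.96 and 3.53 with testosterone and 3.98 and 3.66 in control, a difference of -0.07 (-0.75 to 0.61). Abcg1, which exports cholesterol to HDL, read 4.21 and 4.82 with testosterone and 4.19 and 4.66 in control, a difference of 0.10 (-0.75 to 0.94). The pair thus moved in opposite directions with the replicate number in both groups. Nr1h3, the LXR-alpha receptor that acts on both, differed by -0.01, and both of its replicate 2 arrays were the higher. Npc2, a lysosomal cholesterol-binding protein, read 4.65 and 4.36 with testosterone and 4.68 and 4.40 in control, a difference of -0.04 (-0.64 to 0.56).

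**Figure D3:**
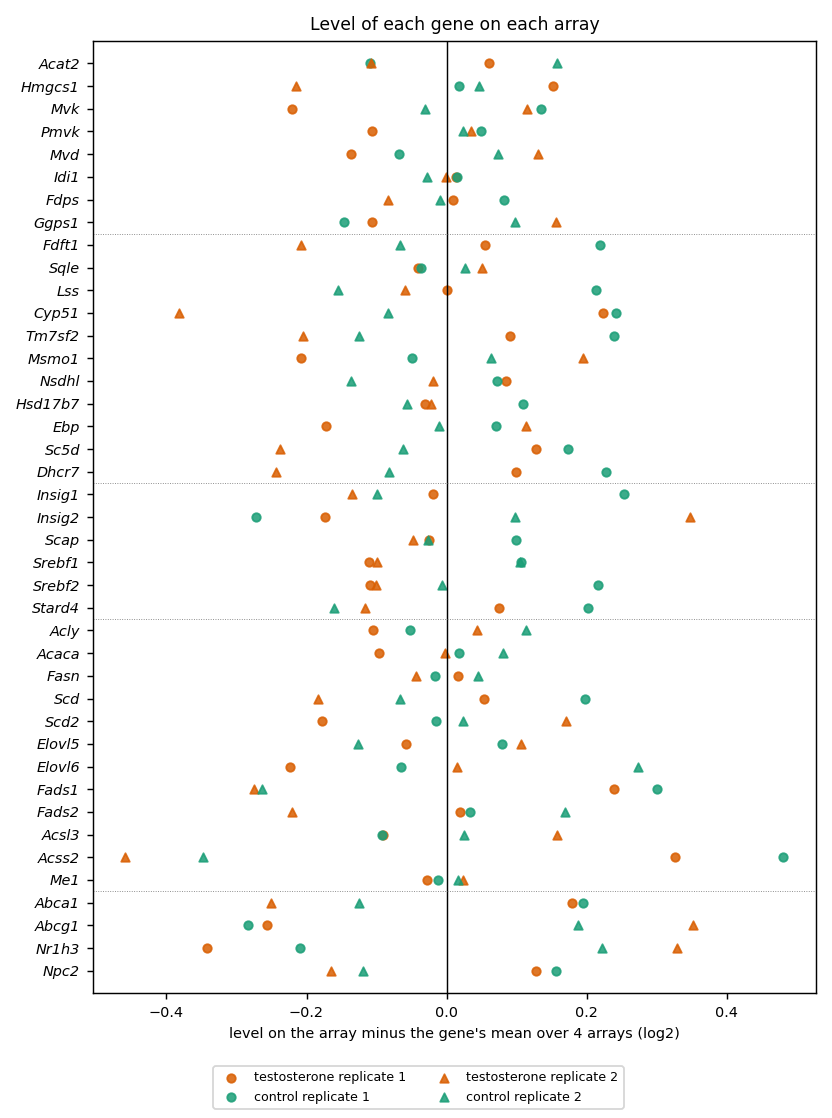
Level of each of the 41 genes on each array minus the gene's mean over 4 arrays (log2), in pathway order; colours are groups, circles replicate 1 and triangles replicate 2, and dotted lines part the roles. For many genes, such as Acss2, Fads1, Cyp51 and Abcg1, circles and triangles lie farther apart than colours.

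For most of these genes the replicate numbers differed more than the groups did. The difference between replicates 2 and 1 was larger in size than that between the groups for 33 of the 41 genes, and for 16662 of 22011 genes of the array. Both replicate 2 arrays read below both replicate 1 arrays for 17 genes and above them for 12, where over all genes the shares were 24.8% below and 38.4% above. Genes of the squalene and sterol steps were on the low side for 7 of 11. With replicate 2 minus replicate 1 as the difference, Acss2 stood at -0.81, Fads1, the delta-5 desaturase, at -0.54, Cyp51 at -0.46 and Dhcr7 at -0.33. Insig1 gave -0.23 with its brightest probe and -0.72, -0.73 and -0.84 with the others. The brightest read mean signals of 34602 to 53389 on a scanner that saturates at 65526, and the next brightest mean signals of 7311 to 14766. In the opposite direction lay Nr1h3 at 0.55, Abcg1 at 0.54 and Insig2 at 0.45. How these counts divide depended on the scaling: with normexp and quantile normalization 24 genes were lower and 6 higher in replicate 2, against 33.9% and 26.8% of all genes. The median of all genes moved from 0.08 to -0.02 with that scaling. What the numbers stand for is not given in the labels, and no test was made of this split.

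**Figure D4:**
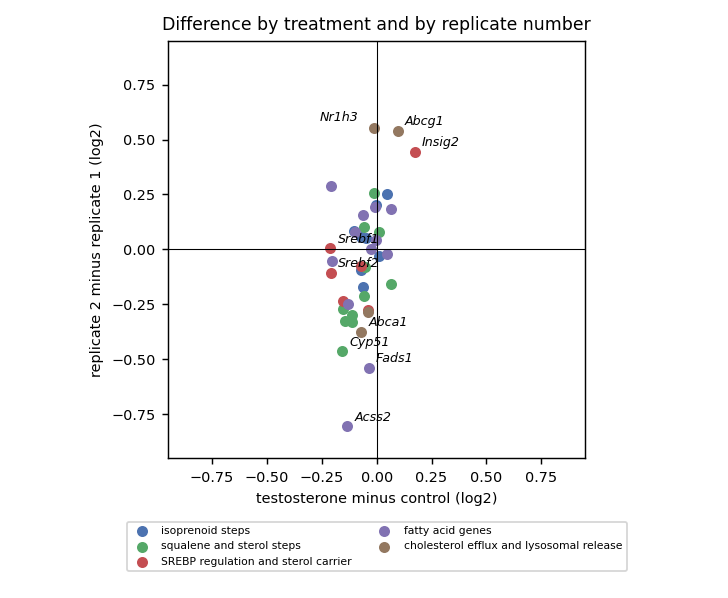
Difference by treatment (horizontal axis, testosterone minus control) against difference by replicate number (vertical axis, replicate 2 minus replicate 1), both on the log2 scale, for the 41 genes coloured by role. The cloud is taller than wide, from -0.81 to 0.55 by number and from -0.21 to 0.17 by treatment.

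Control replicate 1 read at least 1 log2 unit below the other 3 arrays for 335 genes of the array, and 308 of these were read by probes in array columns 57 to 85, which were left out in a second fit. The Srebf1 spots in those columns read higher, not lower, on that array. Replicated probes had a median coefficient of variation of 9.52% on that array and of 5.25% to 5.53% on the others. Of the 60 probes of the pathway, 14 lay in those columns, and none of these 14 had 1 array at least 1 log2 unit from the other 3. Without those columns 35 genes were tested. The sign was positive for 8 and negative for 27, and the median stayed at -0.06. The testosterone arrays lay below the controls for 4 of the 35 (11.4%, against 9.37% of all genes without those columns), and above them for 0 (against 5.21%). The 4 were again Acaca, Fads2, Srebf1 and Srebf2, Srebf2 now through its other probe. Elovl6, read through its other probe, turned positive.

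Other genes of lipid metabolism were read from a second list of 48, covering NADPH supply, triglyceride synthesis, lipoprotein uptake, sterol esterification and the nuclear receptors of lipids. Of these 44 were tested and 0 called, with 15 positive differences, 29 negative ones and a median of -0.05. The groups were apart for 8 genes, all lower with testosterone, and for 0 higher, beside the 9.12% lower and 6.07% higher of all genes given above. Mlxipl, the carbohydrate-responsive factor ChREBP, read -4.24 and -3.70 with testosterone and -3.23 and -3.25 in control. It was the 1 gene of the second list with an unadjusted p under 0.05, at -0.73 (-1.41 to -0.04; adjusted p = 1.00 in limma), from a dim probe. Pparg, the adipogenic receptor, was not well above background on testosterone replicate 2, so no exact difference is given. It read -4.86 on testosterone replicate 1 and -4.65 and -5.36 in control. Among the genes with groups apart, Lpin2, a phosphatidate phosphatase, differed by -0.48, Gpam, which starts triglyceride synthesis, by -0.27 and Lcat, which esterifies cholesterol in plasma, by -0.27. Slc25a1, the mitochondrial citrate carrier, differed by -0.20, Scarb1, the HDL receptor, by -0.15, Nr1h2, the LXR-beta receptor, by -0.13, and Dgat1, which completes triglycerides, by -0.11. The largest positive difference was that of Soat2, a sterol acyltransferase, at 0.31 (-0.35 to 0.97).

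Markers of the labelled cells and of their neighbours were set beside these values, each list as the log2 of its summed level on testosterone replicates 1 and 2 and then on control replicates 1 and 2. Of 10 peritubular myoid markers 7 were tested, and they summed to 7.54 and 7.89, and 7.75 and 7.93. No probe carried the name of 2 of the 10, the smooth muscle genes Acta2 and Myh11, and the probe of Cnn1, calponin, was not well above background. The 7 tested were well above background on all 4 arrays. Tpm2, the brightest of them, was saturated on 2, so the myoid sum is limited by the scanner. Tagln, the dimmest, read -4.63 and -2.84 with testosterone and -4.47 and -2.75 in control. Leydig cell markers, 6 of 7 tested, summed to 7.997 and 8.38, and 8.09 and 8.21. The brightest of them, Hsd11b1, was saturated on all 4 arrays, so this sum is limited by the scanner. The Leydig sum read above the myoid sum on all 4 arrays, with both limited in this way. Star, which carries cholesterol into mitochondria for steroid synthesis, read 5.62 and 6.31, and 5.53 and 6.04, higher on both replicate 2 arrays. Cyp11a1, which cleaves the cholesterol side chain, read -2.36 and -3.33, and -2.20 and -3.10, and Cyp17a1, a later steroid enzyme, -3.03 and -3.73, and -2.66 and -3.96, both lower on replicate 2. Macrophage markers, 7 of 8, summed to 7.33 and 6.84, and 7.49 and 6.92, lower on both replicate 2 arrays. Cd68, Tyrobp, Lyz2, C1qa and Csf1r followed that order. Cd14 and Cd163 went the other way, with Cd14 at 2.23 and 2.51, and 2.36 and 2.40. Sertoli cell markers, 5 of 9, summed to 2.86 and 3.60, and 3.05 and 3.45, and endothelial markers, 4 of 7, to 0.08 and 0.61, and 0.31 and 1.01. Germ cell markers, 3 of 8, summed to -1.28 and 2.11, and -1.48 and 2.14, higher on both replicate 2 arrays. Prm1 and Tnp1 followed that order. Ddx4 did not, at -2.56 and -3.83 with testosterone and -3.96 on control replicate 2, from a probe in column 78. On control replicate 1 it was not well above background, so no level is given. Of 7 adipocyte markers only Fabp4 was tested, at 0.25 and 0.63, and 0.20 and 0.75. In the sum of each list the groups overlapped, and 0 markers passed the test. The part of macrophage and germ cell RNA in the differences by replicate number was not tested.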

How the data were processed

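Total RNA was amplified from oligo-dT, labelled with Cy3 and hybridised to 4 arrays of the Agilent 4x44k rat design, per the labels' protocols, all on 1 slide. Per the file headers, Feature Extraction 11.5.1.1 wrote the scanner files (the submitters' processing notes name 10.5), which give each spot's processed signal as an intensity on a linear scale. The deposited table of the authors holds log2 values, which equalled the log2 processed signal minus 1 constant per array (8.79, 8.63, 8.38 and 8.55 for testosterone 1, control 1, testosterone 2 and control 2, over 40749 probes).

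For levels, the array's 75th percentile was subtracted from the log2 processed signal. Outlier spots were left out and saturated spots kept. A probe was tested if detected, that is well above background, on every array of 1 group or more. The brightest probe stood for a gene. Detected spots made up 63.5% to 68.2% of each array. Precision is limited by the number of arrays. Differences and 95% intervals came from limma 3.58.1 in R 4.3.3 (2-sided, Benjamini-Hochberg over all genes). A check on simulated data with independent arrays covered the sign of large planted differences, not how often the intervals hold the true value. The smallest 2-sided p of an exact permutation test of 2 against 2 arrays is 0.333, and no such test was run. Probes were named through a RefSeq gene table of assembly GRCr8, whose promoters are shown; probe positions are in rn4, and the builds were not mixed.

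Values on every array are given for genes whose groups did not overlap, the 3 largest differences of each role and 10 main enzymes, regulators and transporters; of other lipid genes, those with groups apart and the 4 largest differences are named. The genes and lists were chosen with earlier results of these data known. Some well-known genes of the pathway are not reported here.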

Additional observations from a re-analysis of the deposited data

How the results depend on the processing

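With all 4 arrays kept, 10 alternatives of scaling, detection filter, value table, probe choice, left-out array columns, floor and replicate block called 0 genes of the pathway, and gave medians of its differences between -0.07 and -0.06. The testosterone arrays lay below the controls for 4 to 6 of its genes. That was 9.52% to 14.6% of those tested, against 7.87% to 10.7% of all genes. The opposite order held for 0 of its genes and for 5.21% to 10.4% of all genes. Of 22 genes given in detail, 17 kept their sign under those 10, and Scd and Abca1 under the 8 that kept their only probe. Sqle, Fasn and Elovl6 did not. The replicate block, the floor and the filter on all 4 arrays left these differences unchanged, so they could not alter a sign. Leaving out 1 array changed more signs. Of the 22, 10 changed without testosterone replicate 2 and 10 without control replicate 1. Only 1 changed without testosterone replicate 1, and 1 without control replicate 2. With the replicate block 616 of 22038 genes of the array had an unadjusted p under 0.05 in limma, against 174 without it. With that block 0 genes were called, and 0 of the pathway were among the 616. Same-numbered arrays deviated together (correlation 0.471 across genes), but no label ties a number to a culture or day, and the pairing was not used. Leaving out 1 array, with the spread of the single remaining array taken from the other group, gave 0 to 32 genes of the array called higher and 0 to 2 lower, the most without control replicate 2 and 0 of the pathway among them. It gave 13 to 17 positive differences in the pathway, groups apart and lower for 8 to 24 genes and higher for 2 to 12, and medians from -0.11 without control replicate 2 to -0.019 without control replicate 1. Groups apart and lower made up 46.3%, 36.6%, 19.5% and 57.1% of the pathway without testosterone replicate 1, testosterone replicate 2, control replicate 1 and control replicate 2, against 26.5%, 40.1%, 25.2% and 31.9% of all genes. Groups apart and higher made up 29.3%, 4.88%, 14.6% and 11.9%, against 44.6%, 20.4%, 19.6% and 24.4%. The cause of these shifts was not tested. Signal near the scanner's ceiling limited Msmo1, the brightest Scd2 probe and the markers Hsd11b1 and Tpm2. Signal near background limited Acacb, Pparg and the marker Ddx4.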
